A study of Mus musculus with 22 samples.

Results

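BRG1 and CHD4 were mapped side by side by chromatin immunoprecipitation with sequencing (ChIP-seq) in mouse dermal fibroblasts that carry the genotype Lap2alpha KO. The regions listed for BRG1 were compared with those listed for CHD4 at the same number of sonication cycles. The comparison used 4 of the 22 samples of the study, chosen by genotype, antibody and cycles as the sample titles give them: KO BRG1 at 16 and at 20 cycles, and KO CHD4 at 16 and at 20 cycles. Each was 1 library, so there was no replicate, and no test between antibodies could be made. All 4 groups lack Lap2alpha and were crosslinked with both DSG and formaldehyde. The matching wildtype (WT) lists of BRG1 and CHD4, and the lists of lamin A/C (antibodies 3A6 and E1) in both genotypes and of Lap2alpha (antibody 1H11) in WT, were used only for reference. The labels do not say whether the KO cells are 1 clone or how the deletion was made, and region lists do not show whether Lap2alpha was lost.

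BRG1 (gene Smarca4) is an ATPase of the SWI/SNF or BAF complexes, which slide and evict nucleosomes and keep enhancers and promoters accessible. CHD4 is the main ATPase of NuRD, a complex that joins nucleosome remodelling with histone deacetylation and is found at many active promoters and enhancers as well as at silenced genes. Lap2alpha is the nucleoplasmic splice form of the Tmpo gene and holds A-type lamins in the nuclear interior.

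At 16 cycles most CHD4 regions met a BRG1 region, and at these sites the BRG1 region was usually the wider one. At 16 cycles the BRG1 list held 107321 regions over 73.2 Mb and the CHD4 list 88788 regions over 52.3 Mb. Of the BRG1 regions 62234 (58.0%) overlapped a CHD4 region by at least 1 bp, and of the CHD4 regions 63091 (71.1%) overlapped a BRG1 region. That left 45087 BRG1-only and 25697 CHD4-only regions. At gene ends, a window of 1 kb to each side of either end of 21887 protein-coding genes, 9874 genes (45.1%) had both proteins, 2027 (9.26%) BRG1 alone, 570 (2.6%) CHD4 alone and 9416 (43%) neither.

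As examples of the 3 kinds of gene start, 6 promoters are printed, 2 of each kind, chosen after their values were seen from the genes named further on, where the 300 bases at the start fall in the same class as the gene. Ajuba encodes a LIM-domain adaptor of cell contacts and Hippo signalling, and Ccn1 a secreted matrix protein that is a classic YAP target; both had BRG1 and CHD4. Chst11, a chondroitin sulfotransferase, and Phf2, a histone demethylase, had BRG1 alone. Tfip11, a splicing factor, and Slc25a38, a mitochondrial glycine carrier, had CHD4 alone. These classes are those of 16 cycles. At 20 cycles, over the same 300 bases, Phf2 kept BRG1 alone and Ajuba had BRG1 alone. Ccn1, Chst11, Tfip11 and Slc25a38 had neither there. Each sequence is the 250 bases before the RefSeq start (GRCm38.p6), 5′ to 3′ on the strand of the gene. Capitals mark matches, on either strand, to the letters of AP-1, CRE, NF-Y, GC box, E-box, TEAD, ETS, ZBTB33 and NRF1 motifs.
Ajuba (chr14:54577662-54577911, minus strand): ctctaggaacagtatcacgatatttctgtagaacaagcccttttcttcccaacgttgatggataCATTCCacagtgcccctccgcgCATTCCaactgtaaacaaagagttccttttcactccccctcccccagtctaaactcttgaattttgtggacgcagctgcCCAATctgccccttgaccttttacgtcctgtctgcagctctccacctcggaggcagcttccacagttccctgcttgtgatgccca
Ccn1 (chr3:145649986-145650235, minus strand): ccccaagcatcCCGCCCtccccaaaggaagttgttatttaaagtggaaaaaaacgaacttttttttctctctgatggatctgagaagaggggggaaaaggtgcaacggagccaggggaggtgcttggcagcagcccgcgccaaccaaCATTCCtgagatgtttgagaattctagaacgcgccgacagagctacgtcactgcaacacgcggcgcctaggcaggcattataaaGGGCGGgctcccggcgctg
Chst11 (chr10:82985247-82985496, plus strand): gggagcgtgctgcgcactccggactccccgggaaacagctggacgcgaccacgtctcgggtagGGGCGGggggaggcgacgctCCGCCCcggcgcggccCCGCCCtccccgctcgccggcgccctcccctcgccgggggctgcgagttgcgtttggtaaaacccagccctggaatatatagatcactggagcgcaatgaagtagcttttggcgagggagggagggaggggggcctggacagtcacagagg
Phf2 (chr13:48870886-48871135, minus strand): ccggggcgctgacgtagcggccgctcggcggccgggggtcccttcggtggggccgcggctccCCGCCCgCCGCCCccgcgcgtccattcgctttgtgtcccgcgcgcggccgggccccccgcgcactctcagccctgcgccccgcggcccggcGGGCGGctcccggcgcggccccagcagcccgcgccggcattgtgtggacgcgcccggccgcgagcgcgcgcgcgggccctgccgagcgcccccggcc
Tfip11 (chr5:112326119-112326368, plus strand): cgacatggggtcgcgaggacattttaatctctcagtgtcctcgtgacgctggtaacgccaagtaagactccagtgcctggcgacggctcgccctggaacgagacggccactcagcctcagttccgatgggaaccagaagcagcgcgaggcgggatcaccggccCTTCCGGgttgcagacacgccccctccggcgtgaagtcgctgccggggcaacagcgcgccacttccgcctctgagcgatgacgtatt
Slc25a38 (chr9:120110132-120110381, plus strand): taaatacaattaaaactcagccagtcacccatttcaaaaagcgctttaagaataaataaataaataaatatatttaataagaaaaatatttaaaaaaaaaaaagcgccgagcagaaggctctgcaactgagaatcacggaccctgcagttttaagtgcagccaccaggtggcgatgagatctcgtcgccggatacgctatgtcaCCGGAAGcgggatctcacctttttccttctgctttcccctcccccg
By the script's matches, the Ajuba and Ccn1 stretches hold TEAD letters, those of Chst11 and Phf2 hold GC boxes and no other of the 9 motifs, and those of Tfip11 and Slc25a38 hold 1 ETS match each and no other. The stretch of Phf2 had a GC content of 85.6% with 50 CpG dinucleotides, and that of Slc25a38 41.6% with 12. A match is a description of the letters, not a bound site. These 6 do not stand for their classes: over all promoters with both, BRG1 alone, CHD4 alone and neither, TEAD letters were in 12.2%, 11.3%, 12.3% and 14.9%, and GC boxes in 65.3%, 67.5%, 64.1% and 30.8%.

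The 4 lists differed in form and length, and this sets what can be compared. The BRG1 list at 20 cycles held 175641 regions with a median width of 360 bp, against 608 bp at 16 cycles. The CHD4 list at 16 cycles had a median width of 474 bp. The CHD4 list at 20 cycles held only 7283 regions over 2.34 Mb, the shortest of the 18 lists of the study, which ran up to 233769 regions, and 3075 of its intervals had the same maximum width of 382 bp. The lists carry no score, the read depth is unknown, and a longer list need not mean more protein. The comparison therefore leads with 16 cycles.

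**Figure D1:**
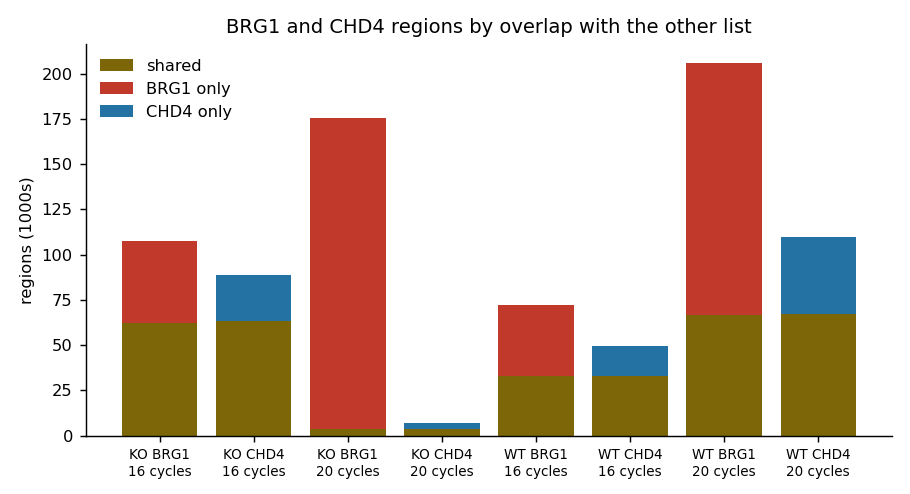
Number of merged regions (in units of 1000, vertical axis) in each BRG1 and CHD4 list, 1 bar per library, divided into regions that overlap the other antibody's list of the same genotype and cycles and regions that do not. The KO CHD4 bar at 20 cycles, 7283 regions, is the smallest, and the KO bars at 16 cycles hold 62234 and 63091 shared regions.

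Shared regions of the 16-cycle lists mostly had an identical centre. Of the 62234 shared BRG1 regions, 53359 (85.7%) had exactly the same centre as a CHD4 region, while only 211 had the same start and end. Among the BRG1 regions without such a partner, 16.4% overlapped a CHD4 region (95% Wilson interval 16.1% to 16.8%), and among the CHD4 regions 27.5% (27.0% to 27.9%). At 20 cycles 10 shared BRG1 regions (0.277%) had an identical centre. The WT lists behaved like the KO lists at 16 cycles, with identical centres for 88.9% of shared BRG1 regions at 16 and 70.5% at 20 cycles. KO BRG1 centres at 16 cycles also recurred in other libraries, in 44.4% of cases in WT BRG1 at 16 cycles and in 11.5% in KO lamin A/C (3A6) at 16 cycles. In the KO CHD4 list at 20 cycles, by contrast, 6.67% of centres recurred in KO lamin A/C (E1) at 16 cycles and at most 0.191% in any BRG1 or other CHD4 list. How the authors set the coordinates is not given in the sources used here, and the part of this step in the sharing was not tested.

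At 16 cycles the share of BRG1 regions with CHD4 was 58.0% (95% Wilson interval 57.7% to 58.3%), 5.27 times the share found after the CHD4 list had been moved by 10 kb. The share of CHD4 regions with BRG1 was 71.1% (70.8% to 71.4%), against 13.3% after the shift, a ratio of 5.35. These intervals cover counting error only, and neighbouring regions are not independent. Joined into 132237 places, 46.5% held both proteins, 34.1% BRG1 alone and 19.4% CHD4 alone. Where 1 BRG1 region met 1 CHD4 region, in 59367 pairs, the BRG1 region was the wider in 69.5%, with a median width ratio of 1.25, and the CHD4 region lay wholly inside it in 67.5%. Where centres are identical the wider region contains the other by construction, so the last share largely restates the one before.

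At 20 cycles 3592 of the 7283 CHD4 regions (49.3%; 48.2% to 50.5%) overlapped BRG1, against 13.8% after the shift, and 3604 of the 175641 BRG1 regions (2.05%) overlapped CHD4. In 3484 pairs at 20 cycles the median distance between centres was 173 bp, and BRG1 was the wider in 92.7%. Most of the overlapping regions met each of the KO lists at 16 cycles. Of the shared BRG1 regions at 20 cycles 87.5% met the CHD4 list at 16 cycles (17.8% after the shift). The BRG1 list at 16 cycles was met by 89.6% (20.4% after the shift). The WT lists gave 45.4% of BRG1 regions and 66.9% of CHD4 regions shared at 16 cycles, and 32.4% and 61.4% at 20 cycles. CHD4 had the higher share each time, and it was the shorter list each time, which raises its share. With equal numbers of the widest KO regions the shares were 66.2% for BRG1 and 67.4% for CHD4 at 16 cycles, and 11.4% and 11.7% at 20. Whether KO and WT differ could not be tested with 1 library per group.

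Wide regions were shared far more often than narrow ones. With BRG1 regions at 16 cycles ordered by width into 5 bins of near-equal number, 19.3% of the narrowest (2 to 288 bp) and 95.3% of the widest (1035 to 6280 bp) overlapped CHD4. For CHD4 the shares ran from 43.1% (2 to 248 bp) to 98.0% (885 to 4971 bp). A wide region covers more sequence and can be overlapped more easily. The median width of shared BRG1 regions was 868 bp and of BRG1-only regions 342 bp, and for CHD4 it was 608 bp and 284 bp.

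**Figure D2:**
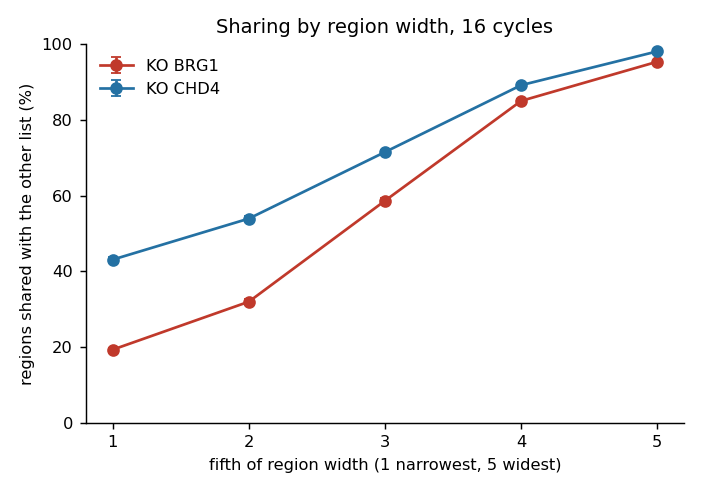
Share of KO regions at 16 cycles that overlap the other list (percent, vertical axis) by bin of region width, from 1, the narrowest, to 5, the widest. Bars are 95% Wilson intervals, mostly smaller than the points, and both lines rise at every step, BRG1 from 19.3% to 95.3% and CHD4 from 43.1% to 98.0%.

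The widest regions of each list were all shared. The widest BRG1 region, 6280 bp at chr17:70847932-70854211 (GRCm38), lay within 1 kb of Tgif1, a homeobox repressor of TGF-beta signalling. Next by width among regions in or near a gene were that of Camk2d (5355 bp), a calcium-dependent kinase, and one of 5116 bp in Bicral, a BAF subunit. The latter lay inside the gene body, and the widest BRG1 region at an end of Bicral was 1392 bp. The widest CHD4 region, 4971 bp at chr11:69121188-69126158, lay at Hes7, a Notch-driven repressor, and Aloxe3, a lipoxygenase of the skin barrier. CHD4 was also wide at Itga5 (4848 bp), the fibronectin receptor chain. Each of the 10 widest regions of either list overlapped the other.

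Shared regions lay at gene ends more often than regions of 1 protein. Of the shared BRG1 regions at 16 cycles 16.3% (16.0% to 16.6%) touched a gene end, against 7.39% of BRG1-only (7.15% to 7.63%) and 6.48% of CHD4-only regions (6.19% to 6.79%). Evenly spaced windows of 500 bp gave 3.71%. With windows of 5 kb to each side of the gene ends the order of the 1-protein classes turned, 18.8% for BRG1-only and 24.7% for CHD4-only. At 16 cycles the median distance of CHD4-only regions to the nearest gene end was 16.0 kb, against 29.1 kb for BRG1-only and 18.2 kb for shared BRG1 regions. Between 1 and 10 kb from a gene end lay 33.4% of CHD4-only, 21.9% of BRG1-only and 24.2% of shared BRG1 regions. At 20 cycles the CHD4-only regions did not lie closer, with medians of 24.7 kb for CHD4-only, 24.9 kb for BRG1-only and 17.3 kb for shared BRG1 regions.

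**Figure D3:**
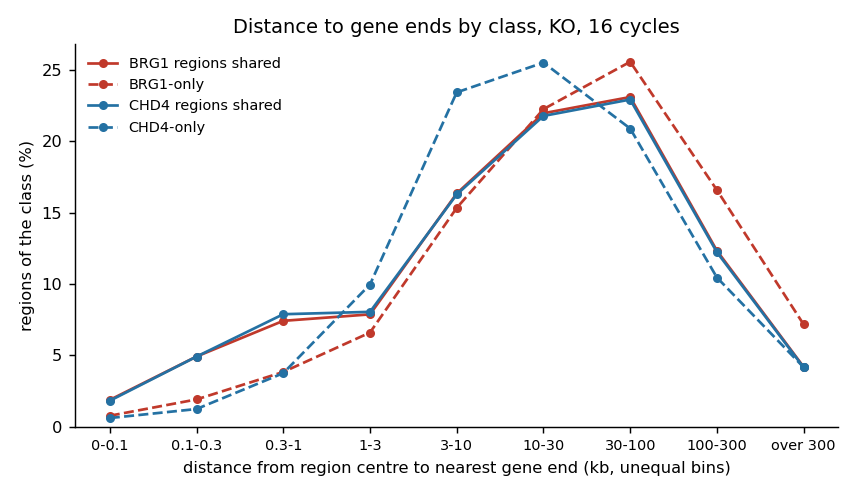
Percent of regions of each class (vertical axis) by distance from the region's centre to the nearest gene end (kb, horizontal axis, unequal bins) in KO at 16 cycles. Both shared classes lie above the 1-protein classes within 1 kb, CHD4-only regions are highest between 1 and 30 kb (23.4% at 3 to 10 kb), and BRG1-only regions are highest beyond 30 kb.

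The strand was known for 17492 of the genes, which allowed starts and 3′ ends to be told apart. Starts held 11.5% of shared BRG1 regions, 4.82% of BRG1-only and 2.94% of CHD4-only regions, against 1.59% of the evenly spaced windows. At 3′ ends the shares were 2.41%, 1.53% and 2.53%, against 1.58%. CHD4-only regions at 16 cycles were thus listed nearly as often at 3′ ends as at starts, but at 20 cycles 3.87% were at starts and 1.54% at 3′ ends. A further 48.3% of CHD4-only regions lay inside a gene body away from its ends, against 43.8% of BRG1-only and 40.4% of shared BRG1 regions (38.0% of the windows).

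CHD4-only regions were the class most concentrated in gene-rich sequence at 16 cycles. Bins of 1 Mb with 11 or more genes, 26.0% of all bins, held 49.6% of the length covered by CHD4-only regions, 40.9% of that of shared BRG1 regions and 32.7% of that of BRG1-only regions. Bins with 2 genes or fewer, 33.0% of all bins, held 9.84%, 12.9% and 18.5%. At 20 cycles the gene-rich shares were 39.3% for CHD4-only, 42.0% for shared BRG1 and 37.7% for BRG1-only regions, so CHD4-only regions of the short list did not lead. By chromosome, the number of BRG1 regions per CHD4 region at 16 cycles ran from 1.04 on chromosome 11 to 1.39 on chromosome 1. The share of BRG1 regions with CHD4 ran from 52.1% on X to 64.9% on chromosome 11, and the share of CHD4 regions with BRG1 was lowest on X, 60.9%.

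At 16 cycles 64.7% of BRG1-only and 74.7% of CHD4-only regions lay within 10 kb of a region of the other protein. No comparison value was made for these distances, which also depend on the length of the other list. The median distance from a BRG1-only region to the nearest CHD4 region was 5.68 kb, and from a CHD4-only region to the nearest BRG1 region 3.98 kb. At 20 cycles, with the short CHD4 list, the medians were 77.8 kb and 2.68 kb.

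The classes recurred in other libraries to different degrees. Of the shared BRG1 regions at 16 cycles 85.7% overlapped KO BRG1 at 20 cycles, 85.3% WT BRG1 at 20 cycles and 69.1% WT CHD4 at 20 cycles. After a 10 kb shift these shares were 22.2%, 22.9% and 15.3%, so the ratios were 3.87, 3.73 and 4.53. BRG1-only regions recurred in 44.7% of cases in KO BRG1 at 20 cycles (12.1% after the shift, a ratio of 3.71). In WT BRG1 at 20 cycles they recurred in 50.6% (13.1% after the shift, a ratio of 3.86). In the BRG1 lists at 20 cycles the shared and BRG1-only classes thus differed in share but hardly in ratio. With WT BRG1 at 16 cycles their ratios were 6.68 and 4.76. CHD4-only regions met the WT CHD4 list at 20 cycles in 26.9% of cases (9.34% after the shift, a ratio of 2.88) and the longer WT BRG1 list in 27.4% (12.9% after the shift, a ratio of 2.12). At 16 cycles 11.4% met WT CHD4 and 6.49% WT BRG1, against 3.34% and 5.41% after the shift. The KO CHD4 list at 20 cycles met 5.14% of shared BRG1, 0.501% of BRG1-only and 1.04% of CHD4-only regions, so CHD4-only regions had next to no second KO list in which they could be checked.

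Lamin A/C by antibody 3A6 in KO at 16 cycles overlapped 16.0% of shared BRG1, 15.3% of BRG1-only and 14.3% of CHD4-only regions. The classes differ in width, and after the shift the shares were 6.71%, 4.15% and 3.65%, so the ratios were 2.38, 3.67 and 3.92. Antibody E1 in KO at 16 cycles gave another order, with 4.23%, 2.08% and 1.52% and ratios of 3.36, 1.60 and 1.70. With E1 in KO at 20 cycles the ratios were 0.806, 1.09 and 1.13. Lap2alpha regions of WT cells at 20 cycles overlapped 12.5%, 7.66% and 7.27%, or 2.93, 3.15 and 2.80 times the shifted shares. The CHD4-only regions of the 20-cycle list met lamin A/C (E1) in KO at 20 cycles in 11.3% of cases (3.79% after the shift), against 0.780% (0.445%) of the shared CHD4 regions at 20 cycles. With the KO E1 list at 16 cycles the order turned, 6.23% (1.65% after the shift) against 7.93% (0.612%). The CHD4-only regions met KO CHD4 at 16 cycles in 11.4% of cases, against 83.0% of the shared ones.

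**Figure D4:**
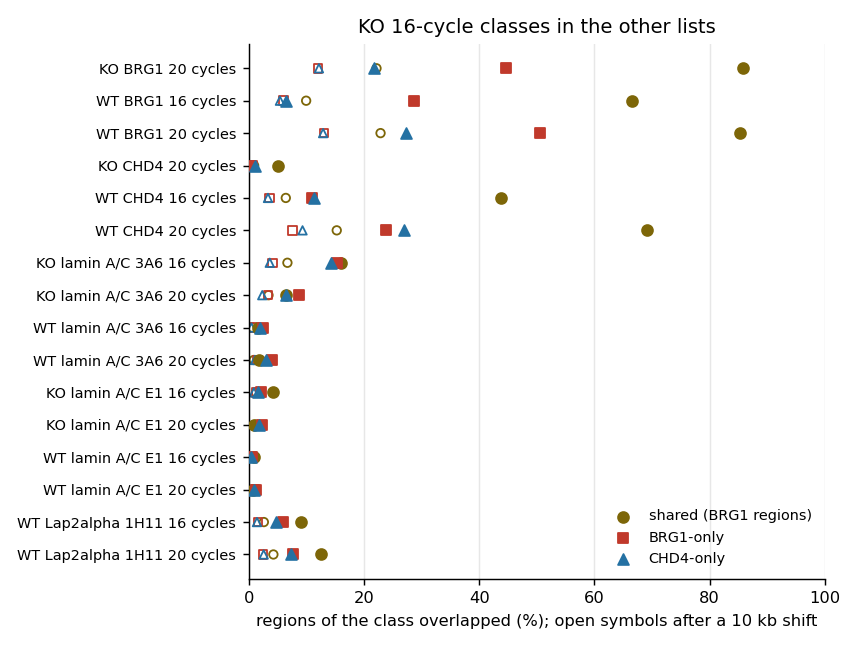
Percent of the KO 16-cycle classes overlapped by each other list (filled symbols, horizontal axis) and after moving that list by 10 kb (open symbols), 1 row per list. Shared regions lie to the right in every other BRG1 and CHD4 list, from 5.14% (KO CHD4 at 20 cycles) to 85.7% (KO BRG1 at 20 cycles), and all classes lie at or under 16.0% in the lamin A/C and Lap2alpha lists.

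A stricter reading keeps BRG1-only regions that met none of the 4 CHD4 lists of the study, in either genotype or length. They numbered 31874 (70.7% of BRG1-only), 59.7% of them recurred in at least 1 other BRG1 list, and 2343 were in all 4 BRG1 lists. CHD4-only regions that met none of the 4 BRG1 lists numbered 15173 (59.0%), 24.6% of them recurred in another CHD4 list, and 19 were in all 4 CHD4 lists. Lists of unequal length limit both counts.

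Over all 21887 genes at 16 cycles, 11901 (54.4%) had BRG1 and 10444 (47.7%) had CHD4 at a gene end. Where both were present, 9641 of 9874 genes (97.6%) had a BRG1 and a CHD4 region at an end that overlapped a region of the other list. At 20 cycles 845 genes (3.86%) had both, 12038 (55%) BRG1 alone, 50 (0.228%) CHD4 alone and 8954 (40.9%) neither, from 58.9% of genes with BRG1 and 4.09% with CHD4. Regions at genes with both were wider, with a median of 1034 bp for BRG1 against 568 bp at BRG1-alone genes, and 658 bp for CHD4 against 322 bp at CHD4-alone genes.

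The median distance from the gene's nearer end to the closest CHD4 region was 4.28 kb for BRG1-alone genes, and to the closest BRG1 region 3.14 kb for CHD4-alone genes. These distances too have no comparison value. Of the 2027 BRG1-alone genes, 66.2% had CHD4 at a gene end in WT cells at 20 cycles, against 54.7% of all genes. Of the 570 CHD4-alone genes, 52.6% had BRG1 in KO cells at 20 cycles and 61.6% in WT cells at 20 cycles, near or below the 58.9% and 63.1% of all genes. At starts 1577 genes had BRG1 alone and 310 CHD4 alone, while at 3′ ends the numbers were 757 and 630. BRG1 alone thus exceeded CHD4 alone by more at starts than at 3′ ends. Each end was classed by itself over the 17492 genes with a known strand, so these counts do not divide the 2027 and 570 genes.

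The genes of the proteins under study carried both at 16 cycles and BRG1 alone at 20, against 45.1% and 55% of all genes. At Smarca4 the BRG1 region was 858 bp at 16 cycles and 852 bp at 20, and the CHD4 region 768 bp at 16 cycles with none at 20. At the start of Chd4 the BRG1 regions were 820 and 905 bp. CHD4 was there at 16 cycles only, with 760 bp at the start and 952 bp at the 3′ end. Widths given per gene are those of the widest region at either end, so those of the 2 proteins may lie at different ends. Tmpo, the gene of Lap2alpha and other LAP2 proteins, had 1326 and 1404 bp of BRG1 and 1596 bp of CHD4 at 16 cycles. Lmna, the A-type lamin gene, had 1038 and 918 bp of BRG1 and 2286 bp of CHD4 at 16 cycles, so there the CHD4 region was the wider.

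The genes with both proteins in all 4 lists numbered 772. Because the CHD4 regions at 20 cycles were limited to about 382 bp, 335 of them tied on the smallest width, and the 8 named were the first of these in alphabetical order: AI413582, Abhd16a, Ache, Actg1, Adamts7, Adck5, Agbl5 and Ajuba. Actg1, the gene of cytoplasmic gamma-actin, had 2466 bp of BRG1 and 1418 bp of CHD4 at 16 cycles, and 1106 and 382 bp at 20 cycles. Ajuba had 1750 bp of BRG1 and 1100 bp of CHD4 at its start at 16 cycles, and 648 and 382 bp at 20 cycles. Abhd16a, a phospholipase gene, was a case of wider CHD4, 1808 bp against 918 bp of BRG1 at 16 cycles.

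BRG1 alone, present at both lengths with CHD4 at neither, was found at 1559 genes. The widest at 16 cycles were Chst11 (3018 bp), Phf2 (2967 bp), and the neighbours Commd9, an endosomal trafficking gene, and Prr5l, a partner of mTOR complex 2, which share 1 region of 2962 bp. Then came Igf2bp1 (2678 bp), an RNA-binding protein of growth control, Scarb1 (2570 bp), the HDL receptor, Dnajc5 (2514 bp), a co-chaperone, and Tdp2 (2434 bp), a DNA repair enzyme. At 20 cycles the BRG1 regions of these genes were 200 bp (Chst11) to 2275 bp (Tdp2). In WT cells at 20 cycles, where 54.7% of all genes had CHD4, 7 of these 8 had it, the exception being Prr5l, whereas at 16 cycles in WT cells, where 17.6% of all genes had CHD4, Dnajc5 was the 1 with it.

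CHD4 at 16 cycles with BRG1 at neither length was found at 270 genes. The widest were Drc1 (1712 bp), a gene of motile cilia, Tfip11 (1674 bp), Slc25a38 (1607 bp) and Tbx2 (1442 bp), a T-box repressor. Acot8 (1316 bp), a peroxisomal thioesterase, and Pla2g1b (1302 bp), a secreted phospholipase, carried that region at the 3′ end. Wbp1l (1144 bp) and Zfp341 (1114 bp), a zinc finger gene, followed. None had CHD4 in the KO list at 20 cycles, where only 4.09% of all genes had it, so this does not set them apart. In WT cells at 20 cycles Tfip11, Slc25a38 and Zfp341 had both proteins, Drc1 had BRG1 alone, Tbx2 and Wbp1l CHD4 alone, and Acot8 and Pla2g1b neither. Of all genes 63.1% had BRG1 and 54.7% had CHD4 there.

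Most genes of both remodelling complexes had both proteins at 16 cycles. Of 29 SWI/SNF subunit genes 26 had both at 16 cycles, against 45.1% of all genes, 1 had BRG1 alone and 2 had neither. The one with BRG1 alone was Smarcb1 (752 bp), the core subunit lost in rhabdoid tumours, and those with neither were Smarcd3 and Actl6b, subunits of muscle and neuronal BAF. Smarcc1, a core scaffold subunit, had 1048 bp of BRG1 and 1951 bp of CHD4. Of 15 NuRD subunit genes 11 had both, Mta3 (1142 bp), Chd3 (980 bp) and Mbd3 (330 bp) had BRG1 alone, and Chd5, the paralogue of neurons and testis, neither. Over all genes 45.1% had both, 9.26% BRG1 alone and 43% neither. Hdac2, a deacetylase of NuRD, had 1316 bp of BRG1 and 1283 bp of CHD4.

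Fibroblast genes were checked against genes of other cell types. A region at a gene end is not a measure of expression. Of 34 fibroblast matrix genes 29 had both at 16 cycles, against 45.1% of all genes. Col12a1 (410 bp) and Fmod (338 bp) had BRG1 alone, against 9.26% of all genes, and Eln, Loxl2 and Lum neither. Mmp14, the membrane-anchored collagenase, had 3722 bp of BRG1 and 1912 bp of CHD4, and Fn1, the fibronectin gene, 3720 bp of BRG1 and 626 bp of CHD4. Timp1, a protease inhibitor, went the other way, with 1240 bp of BRG1 and 3326 bp of CHD4. Of 24 lamina and envelope genes 22 had both and none had 1 protein alone, with Lpin1 and Syne1 having neither. Over all genes 45.1% had both, 9.26% BRG1 alone, 2.6% CHD4 alone and 43% neither.

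Among 26 fibroblast identity factors and receptors 17 had both and 6 had BRG1 alone, against 45.1% and 9.26% of all genes. Pdgfra, the receptor that marks fibroblasts, had 3883 bp of BRG1 and 2276 bp of CHD4. The widest with BRG1 alone was Prrx1, a homeobox factor of fibroblasts, with 3627 bp at 16 cycles and 3456 bp at 20. Prrx1 did have a CHD4 region of 382 bp at 20 cycles, at its 3′ end. Nr2f2, an orphan nuclear receptor, had 2281 bp of BRG1 at 16 cycles and no CHD4 at either length, and Fap, Foxf2, Nr2f1 and Dpp4 were the others with BRG1 alone at 16 cycles. In WT cells at 20 cycles 23 of the 26 had CHD4, against 54.7% of all genes.

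Signal-response genes mostly had both at 16 cycles, against 45.1% of all genes. Of 24 contractile and YAP target genes 20 had both, and Ccn1 was the widest, with 4079 bp of BRG1 and 3808 bp of CHD4. Yap1 itself had BRG1 alone at 16 cycles (978 bp). Of 23 AP-1 and immediate early genes 21 had both, among them Klf6 (3223 and 974 bp), Myc (2887 and 1818 bp), Fos (2882 and 902 bp) and Junb (2816 and 1648 bp). BRG1 was the wider at 17 of the 21 and CHD4 at 4. This was no trait of the list, since BRG1 was the wider in 69.5% of all pairs of 1 BRG1 and 1 CHD4 region. Among genes with both, BRG1 was likewise the wider at 23 of 28 cell cycle and 55 of 68 ribosomal protein genes. At the protocadherins CHD4 was the wider at 17 of 26. Jun and Egr2 had neither at 16 cycles, although Jun had 2548 bp of BRG1 at 20. Of 24 TGF-beta and BMP genes 18 had both, and Tgfb3, Smad2 and Ski had BRG1 alone. Of 16 p53 target genes 14 had both and none had 1 protein alone. Over all genes 9.26% had BRG1 alone and 2.6% CHD4 alone, so such small counts set none of these lists apart.

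Growth genes mostly had both as well, against 45.1% of all genes. Of 37 cell cycle and E2F genes 28 had both and 7 BRG1 alone, among them the replication licensing genes Mcm2, Mcm3 and Mcm5. Of 81 cytoplasmic ribosomal protein genes 68 had both and 9 BRG1 alone, led by Rpl17 (1906 bp); over all genes 9.26% had BRG1 alone. Of 59 replication-dependent histone genes 51 had both and none had 1 protein alone; these genes lie in clusters, and neighbours such as H2ac20, H2ac21 and H2bc21 share 1 BRG1 region of 2725 bp. Of 25 housekeeping genes 20 had both. In none of the lists named so far did a member have CHD4 alone at 16 cycles, against 2.6% of all genes. The larger family of 367 zinc finger (Zfp) genes did have such members. Of these genes 227 had both, 42 BRG1 alone, 15 CHD4 alone and 83 neither.

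Genes of cell types other than fibroblasts mostly had neither, against 43% of all genes. Both proteins were at 3 of 20 keratinocyte genes, 1 of 13 endothelial genes and 2 of 16 leukocyte genes, against 45.1% of all genes. In a list of 18 genes of muscle, fat and pigment cells 3 had both. CHD4 alone was at Krt10 (726 bp), a keratin of differentiating epidermis, Vwf (198 bp), the endothelial clotting factor, and Ttn (198 bp), the giant protein of muscle. Each was the 1 such member of its list. Over all genes 2.6% had CHD4 alone, so these single genes set no list apart. Of 1110 olfactory receptor genes 9 had both, 21 BRG1 alone and 9 CHD4 alone, against 45.1%, 9.26% and 2.6% of all genes. Of 39 HOX genes 18 had both and 18 neither, close to the 45.1% and 43% of all genes. Hoxc6 was the widest (3160 and 2286 bp), and Hoxa4 had CHD4 alone (838 bp).

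The protocadherins were the one list with more CHD4 than BRG1, 42 against 32 of 57 genes at 16 cycles. Of these, 16 genes of the gamma cluster, adhesion proteins that share their last exons, had CHD4 alone. The 16 genes rest on 2 CHD4 regions at ends they have in common, so they are not independent. The 14 genes of the alpha cluster, all with both proteins, likewise rest on 2 BRG1 and 2 CHD4 regions. The counts of 42 and 32 genes are therefore not counts of separate sites. All 21 gamma genes had BRG1 in KO cells at 20 cycles and both proteins in WT cells at 20 cycles.

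**Figure D5:**
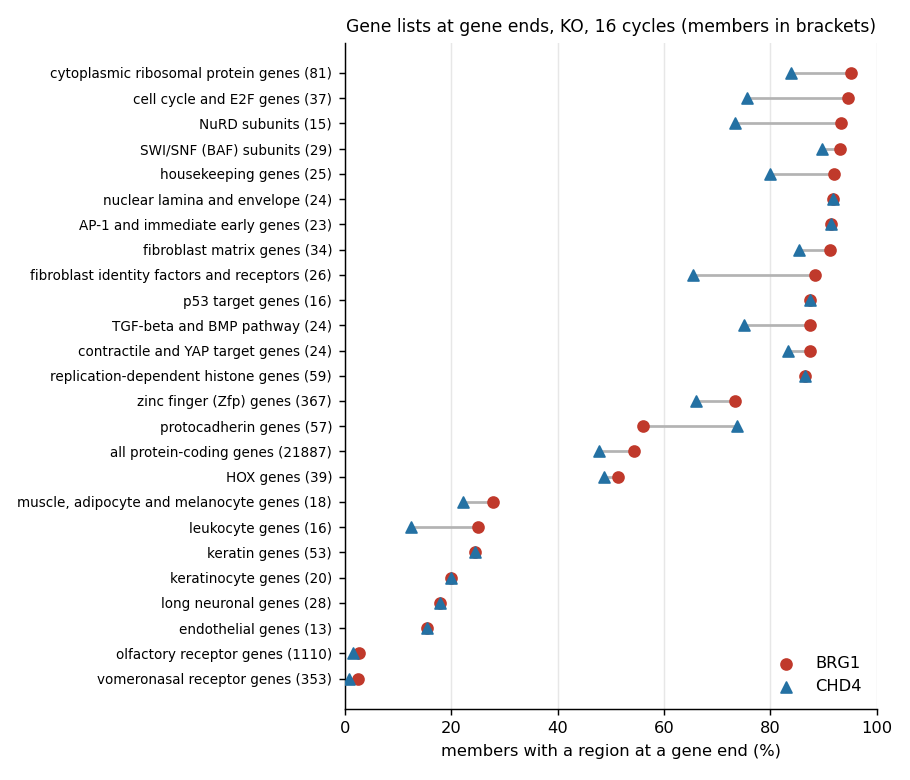
Percent of the members of each gene list (rows, members in brackets) with a KO BRG1 (circle) or KO CHD4 (triangle) region at a gene end at 16 cycles; all protein-coding genes are 54.4% and 47.7%. BRG1 is level with or to the right of CHD4 in each list but the protocadherins (56.1% and 73.7%).

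Away from the ends, long neuronal genes were sparsely covered and their regions were shared less often. The bodies of 28 such genes, which hold adhesion and synaptic genes of very great length, held 14.5 regions per Mb against 68.4 over all genes. Of the BRG1 regions in them 36.9% were shared with CHD4, against 60.5% over all gene bodies. Only 5 of the 28 had both at a gene end, against 45.1% of all genes. Opcml was the widest (1874 bp of BRG1 and 1776 bp of CHD4). None had 1 protein alone, against 9.26% of all genes with BRG1 alone and 2.6% with CHD4 alone. BRG1 regions in poorly covered sequence have fewer CHD4 regions to meet, and this was not tested apart.

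Promoter sequence was described over 21238 RefSeq promoters of 300 bases, from 250 before to 50 after the start. Both proteins lay on 27.3% of them, BRG1 alone on 14.1%, CHD4 alone on 2.26% and neither on 56.3%. The occupied classes were alike in base composition, with a median of 21 CpG dinucleotides for both, 23 for BRG1 alone and 20 for CHD4 alone, against 5 for neither. The 9 motifs were searched on both strands. They were AP-1 (TGANTCA, in 6.99% of all promoters), CRE (TGACGTCA, 2.24%), NF-Y (CCAAT, 38.2%), GC box (GGGCGG, 46.2%), E-box (CACGTG, 7.84%), TEAD (GGAATG, 13.6%), ETS (CCGGAAG, 11.6%), ZBTB33 (CTCGCGAGA, 0.965%) and NRF1 (GCGCATGCG, 2.35%). No motif contains another, though matches may overlap.

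ETS letters were in 21.0% of promoters with both, 19.7% with BRG1 alone, 15.4% with CHD4 alone (12.5% to 19.0%, 479 promoters) and 4.82% with neither. NRF1 letters were in 4.76% of promoters with BRG1 alone (4.05% to 5.58%), 3.83% with both (3.36% to 4.35%) and 3.97% with CHD4 alone (2.55% to 6.11%), intervals that overlap, against 0.962% with neither. ZBTB33 letters were in 1.83% of promoters with both, 1.86% with BRG1 alone and 0.626% with CHD4 alone, 3 of 479 (0.213% to 1.83%). ETS and NRF1 letters contain CpG. In the promoters richest in CpG, with 22 to 67 dinucleotides, ETS letters were in 23.9% with both, 23.6% with BRG1 alone, 19.4% with CHD4 alone (14.7% to 25.1%) and 11.6% with neither.

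AP-1 letters were no more frequent at occupied promoters as a whole, 6.40% with both and 7.90% with neither, but the classes differ in CpG content. Among promoters with 0 to 6 CpG dinucleotides they were in 24.4% of those with both (20.8% to 28.5%, 471 promoters), 19.7% with BRG1 alone (15.5% to 24.6%, 290 promoters) and 10.7% with neither. With CHD4 alone they were in 5 of 58 such promoters, 8.62% (3.74% to 18.6%), which lies below the share with both and cannot be told from that with neither. The order did not hold at higher CpG content. With 7 to 21 dinucleotides CHD4 alone had the highest share, 9.80% (6.44% to 14.7%, 204 promoters). The others were 6.94% with both (6.01% to 8.01%), 4.63% with BRG1 alone and 5.28% with neither. With 22 to 67 dinucleotides the shares were 1.38% with CHD4 alone, 2.91% with both, 2.11% with BRG1 alone and 2.71% with neither.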

How the data were processed

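The authors deposited 1 interval list per library. Its 3 columns give the chromosome and the start and end of each interval, with no score, count or significance. The submitters' processing notes name GRCm38 as the build and the tools HOMER 4.11.1, MACS2 2.1.4, SAMtools, bedtools and deepTools. Not given in the sources used here are what each tool did, the calling threshold, the control and any pooling. No input library was used.

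Groups were taken from the sample titles. Intervals of width 0 (1 to 365 per KO BRG1 or CHD4 list) were left out and overlapping intervals merged, which joined 59615 in KO BRG1 and 1103 in KO CHD4 at 20 cycles and none at 16 cycles. Overlap meant at least 1 bp, and a 10 kb shift of the other list gave a comparison value. Wilson intervals (95%) cover counting error only; with 1 library per group no p-value is given.

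Genes were the protein-coding genes of the RefSeq table for GRCm38.p6, which gives no strand, so both ends were used; the RefSeq promoter table gave the strand for 79.9%. Gene-rich and gene-poor bins came from 2641 bins of 1 Mb.

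Genes with both proteins in all 4 lists were named by the smallest width and those with 1 protein alone by the width at 16 cycles (8 each). Of each gene list, classes of 5 or fewer members were open to naming in full, others up to 4 by width; predicted, olfactory and vomeronasal genes were not named. Other members named (Nr2f1, Dpp4 and Mcm2 among them) and the 6 printed promoters were chosen after their values were seen, and the NRF1 and ZBTB33 letters were shortened after a first look. The compared lists, gene lists and rules were chosen with earlier results of these data known.

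Alternatives covered overlap, merging, list length, width, centre windows, autosomes, gene-end and bin sizes; 20 cycles in place of 16 and the omission of identical centres were added after seeing the data. Interval functions were tested on simulated lists (240 of 240 comparisons equal). Python 3.11.15, numpy 2.4.6, pandas 2.3.3, scipy 1.17.1 and matplotlib 3.10.9 were used.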

Additional observations from a re-analysis of the deposited data

How the results depend on the processing

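No paired analysis was possible because each group is 1 library and the labels carry no replicate number. The cause of the changes below was not tested unless the setting itself states it. The share of BRG1 regions with CHD4 at 16 cycles was 45.2% when 50% of the region had to be covered, 58.7% with regions closer than 500 bp merged, 66.2% with equal numbers of the widest regions, 55.5% with 200 bp windows at centres and 15.9% with identical centres left out of both lists. That of CHD4 regions was 67.9%, 71.7%, 67.4%, 67.1% and 25.5% in that order, and 73.4% for regions of 200 bp or more. CHD4, the shorter list, had the higher share in each of these, by little with equal numbers. At 20 cycles the BRG1 share was 0.343% with 50% covered, 2.43% for intervals as listed, 2.18% with merging, 11.4% with equal numbers, 2.33% for regions of 200 bp or more and 1.11% with centre windows; the CHD4 share was 41.7% with 50% covered, 11.7% with equal numbers and 26.8% with centre windows.

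The gene-end shares of shared BRG1, BRG1-only and CHD4-only regions were 14.0%, 5.41% and 3.96% with windows of 500 bp, 28.9%, 18.8% and 24.7% with 5 kb, 14.4%, 11.01% and 7.66% with the 50% rule, and 18.1%, 9.58% and 6.80% at 20 cycles. With equal numbers they were 16.7% and 8.62% for the first 2 classes. Shared regions led under each setting. Gene-rich shares were 42.0%, 33.2% and 51.3% with 500 kb bins, 41.4%, 32.0% and 46.3% by numbers of regions, and 42.0%, 37.7% and 39.3% at 20 cycles, the one setting in which CHD4-only regions did not lead.

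In KO BRG1 at 20 cycles the shares of the 3 classes were 84.2%, 43.4% and 20.9% with centre windows and 73.0%, 35.0% and 16.3% with 50% covered. In WT CHD4 at 20 cycles they were 68.0% and 23.3% for the first 2 classes with centre windows, and 50.3%, 17.0% and 21.7% with 50% covered. Genes with both numbered 845, BRG1 alone 12038 and CHD4 alone 50 at 20 cycles, and genes with neither 6242 with windows of 5 kb. The 50% rule does not apply to gene classes, which need no overlap between the lists. Of 24 gene lists the number of members with both stayed within 1.5 times in 21 with windows of 500 bp, 16 with 5 kb and 23 with equal numbers. Read depth is unknown, and the shortness and capped widths of the KO CHD4 list at 20 cycles limit each comparison that uses it.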
